A study of Mus musculus with 12 samples.

Results

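The apoptosis and death receptor genes described here are a fixed list of 45 genes of apoptosis and related processes. The related genes include the inflammatory caspases Casp1 and Casp4, the necroptosis kinase Ripk3, the mitophagy receptor Bnip3 and TNF receptors without a death domain. Of the 45, 41 were analysed among the 11834 genes of the expression table, and Bik, Bbc3, Gadd45a and Gadd45b were not analysed here. The list holds 7 death receptors and related TNF receptors, 1 ligand, 6 adaptors and kinases, 6 caspases, 3 apoptosome or released mitochondrial proteins, 3 inhibitor of apoptosis proteins, 12 Bcl2 family members and 3 genes of the p53 response among those analysed. Bulk polyA RNA was sequenced from whole lactating mammary glands of C57BL/6 mice in lactation 1. The 5 wild-type (WT) mice and the 7 mice lacking Btn1a1 (Btn1a1-/-, KO) were each 1 library. Butyrophilin, the product of Btn1a1, is a major protein of the membrane around the milk fat globule. The glands were taken on day 10 from 3 WT and 5 KO mice, on days 9 and 11 from WT replicates 2 and 3, and on days 8 and 11 from KO replicates 3 and 4. No other allele or agent is named for either group. Wild-type mice were bred in harems and the mutants from separate pairs of heterozygotes, and each mouse ate 1 of a pair of diets that is not given per mouse, so an effect of genotype cannot be told apart from one of breeding or food.

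Cells die by apoptosis through a pair of linked routes. In the extrinsic route, ligands of the TNF family bind death receptors, and adaptors such as Fadd and Tradd bring in the initiator caspase Casp8. In the intrinsic route, BH3-only proteins release Bax and Bak1 from survival proteins such as Bcl2l1 and Mcl1, cytochrome c leaves the mitochondria, and Apaf1 activates Casp9. Inhibitor of apoptosis proteins hold caspases and receptor complexes in check. In the mammary gland these routes are best known from involution, when milk stasis after weaning triggers the death of secretory cells, whereas the lactating gland keeps these cells alive.

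Of the 41 members, 5 passed the test between KO and WT glands at a Benjamini-Hochberg adjusted p under 0.05 (12.2%), against 9.36% of all genes tested. The receptor gene Tnfrsf12a, the inflammatory caspase gene Casp4, the inhibitor gene Birc3 and the p53 regulator Mdm2 were higher in KO glands, and the initiator caspase gene Casp9 was lower. The background for a call in 1 direction was 4.84% for higher and 4.52% for lower. The share of members called stood near that of the table, and nothing particular to the list is read from it. The median log2 change of the members was 0.13, against -0.03 over all genes, and 26 of 41 members had a positive change (63.4%), against 44.6% of all genes. The members were chosen with earlier results of these data known, and 21 of 41 turned sign in at least 1 alternative fit. No shift of the list is read from these values. The members that passed the test differed from one another in size, from a 2.72-fold difference for Tnfrsf12a to a 1.26-fold one for Mdm2 and Casp9. Macrophage markers and basal and myoepithelial markers were also higher in KO glands, and with either marker score as a covariate none of the 5 members was called. Only 1 gene of the table was called with the macrophage score and 10 with the basal one. With the macrophage score the differences were 1.52 for Tnfrsf12a, 0.50 for Casp4, 0.12 for Birc3 and 0.32 for Mdm2. Without it they were 1.44, 0.89, 0.65 and 0.33, and the values with the basal score are given below.

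The bases just upstream of the start sites of the called genes are shown, since these were the members that passed the test in the main fit. The sequences are the 200 bases before the start, 5′ to 3′ on the gene's strand, from RefSeq on GRCm38.p6, and capitals mark matches to an NF-kB motif (GGGANNNNCC) or to a p53 half-site.
Tnfrsf12a, chr17:23677450-23677649, minus strand, no match: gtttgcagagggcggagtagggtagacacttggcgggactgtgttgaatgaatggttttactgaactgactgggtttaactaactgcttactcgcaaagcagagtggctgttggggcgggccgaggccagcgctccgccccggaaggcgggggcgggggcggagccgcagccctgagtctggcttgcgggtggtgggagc
Casp4, the first of 2 listed start sites, chr9:5308649-5308848, plus strand, NF-kB match GGGATTTCCC on both strands: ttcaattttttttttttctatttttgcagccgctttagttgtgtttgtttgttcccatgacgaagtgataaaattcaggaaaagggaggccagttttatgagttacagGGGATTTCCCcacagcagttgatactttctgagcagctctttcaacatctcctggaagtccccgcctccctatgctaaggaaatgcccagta
Birc3, chr9:7873171-7873370, minus strand, NF-kB match GGGATAGGCC: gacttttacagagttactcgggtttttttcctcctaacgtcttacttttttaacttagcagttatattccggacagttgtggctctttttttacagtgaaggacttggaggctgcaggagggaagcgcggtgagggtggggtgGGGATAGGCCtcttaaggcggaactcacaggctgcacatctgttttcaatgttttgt
Mdm2, chr10:117710759-117710958, minus strand, p53 half-site match GAACTTGCCT and then NF-kB match GGCCCCTCCC on the other strand: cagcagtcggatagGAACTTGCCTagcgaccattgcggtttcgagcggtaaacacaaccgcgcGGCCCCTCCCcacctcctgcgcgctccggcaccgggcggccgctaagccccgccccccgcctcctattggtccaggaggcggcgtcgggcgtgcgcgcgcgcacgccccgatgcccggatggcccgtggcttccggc
Casp9, chr4:141793412-141793611, plus strand, no match: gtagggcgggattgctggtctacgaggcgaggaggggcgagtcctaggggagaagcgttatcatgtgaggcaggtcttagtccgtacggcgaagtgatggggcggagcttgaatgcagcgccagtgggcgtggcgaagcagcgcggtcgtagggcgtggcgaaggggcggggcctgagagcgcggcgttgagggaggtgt

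Both strands were searched in windows from 250 bases before to 50 bases after each start, and 38 of the 41 members had a window, 50 in all because some genes have several start sites. The NF-kB motif was in 11 of the 50 member windows (22%) and in 20.7% of 32851 windows of all genes. Counted by gene, 10 of the 38 members with a window held it, Bak1, Bcl2l11, Birc3, Bmf, Bok, Casp4, Mdm2, Traf2, Trp53 and Xiap. The p53 half-site was in 6 member windows (12%; Bax, Birc2, Bmf, Cdkn1a, Mdm2 and Trp53) and in 8.36% of all windows. The AP-1 motif TGANTCA was in 1 member window, that of Fas, against 7.81% of all windows, and the STAT motif TTCNNNGAA was in 4, against 8.30%. The motifs differ in their letters, and overlap between matches of different motifs was not removed. These matches describe letters in the windows.

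Btn1a1 (chr13:23456992-23465901, mm10) checked the genotype labels. Its level was 11.07 ± 0.09 log2 CPM (CPM, counts scaled to library size; SD, n = 5) in WT glands and 5.63 ± 0.30 (SD, n = 7) in KO glands, a fall to 2.31% of the WT level (limma adjusted p 5.2e-13). Csn2 and Wap, milk protein genes, stood at 17.27 and 16.54 log2 CPM in every library. The sorted values of the libraries nearly match, as quantile normalization gives, so genes at the very top hold 1 fixed value. Depth, read from the step between low values, was about 17.1 to 30.4 M reads in WT and 23.2 to 34.7 M reads in KO libraries. The first principal component of all genes placed KO replicate 4 farthest from WT at 47.71 and KO replicate 2 next at 36.29, the other KO glands from -7.14 to 28.45, and no WT gland above -19.16.

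Among the TNF receptors, Tnfrsf12a passed the test. Tnfrsf12a (chr17:23675445-23677468, mm10) encodes Fn14, the receptor of the cytokine TWEAK, which has no death domain and signals through TRAF adaptors. Its level in the 5 WT glands was 2.51, 1.97, 2.63, 1.57 and 2.04 log2 CPM. In the 7 KO glands it ran from 3.19 to 4.52 with a median of 3.50. Every KO gland lay above every WT gland, as in 2.69% of all genes tested, and KO replicate 2 was the highest. The difference was 1.44 ± 0.23 (SE) on the log2 scale, 2.72-fold, with a limma adjusted p of 0.0038 and a two-sided exact permutation p of 0.00126, the smallest that 792 assignments of the labels can give. The call held without each single library and in the day 10 glands alone (1.69, adjusted p 0.0301).

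The other receptors did not pass. Tnfrsf1a, the death domain receptor for TNF, was 4.84, 4.86, 5.13, 4.55 and 4.71 log2 CPM in WT glands and 4.88 to 5.90 with a median of 5.37 in KO glands. 4 of 7 KO glands were above all WT glands, and the difference of 0.50 ± 0.16 (SE) had a limma adjusted p of 0.0610. That p was 0.0352 without KO replicate 4, 0.0441 without KO replicate 5 and up to 0.130 without another single library. Tnfrsf21, death receptor 6, was 2.21, 2.52, 2.78, 2.69 and 3.76 log2 CPM in WT and 3.00 to 4.37 with a median of 3.66 in KO glands. WT replicate 5 lay inside the KO range. The Tnfrsf21 difference of 0.80 ± 0.28 (SE) had an adjusted p of 0.0938. It was 0.0263 without WT replicate 5 and up to 0.206 without another single library. Tnfrsf10b, the receptor for TRAIL, had a difference of 0.67 ± 0.26 (adjusted p 0.111), and Tnfrsf1b, the TNF receptor without a death domain, one of 0.36 ± 0.25 (adjusted p 0.373). Fas, the receptor for Fas ligand, had -0.07 ± 0.19, and Ltbr, the lymphotoxin beta receptor, 0.03 ± 0.10. The median change of the 7 receptors was 0.50, against -0.03 over all genes, and 6 of 7 were positive (85.7%), against 44.6% of all genes. Of the positive ones, Tnfrsf1b and Ltbr turned sign in some alternative fit, and only 1 of the 7 receptors was called. The receptors, like all members, were chosen with earlier results of these data known. No shift of the receptors is read from these values. Tnfsf10, the gene for TRAIL and the ligand of Tnfrsf10b, was 1.78 ± 0.32 (SD, n = 5) in WT and 1.98 ± 0.30 (SD, n = 7) in KO glands, a difference of 0.20 with an adjusted p of 0.483.

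**Figure D1:**
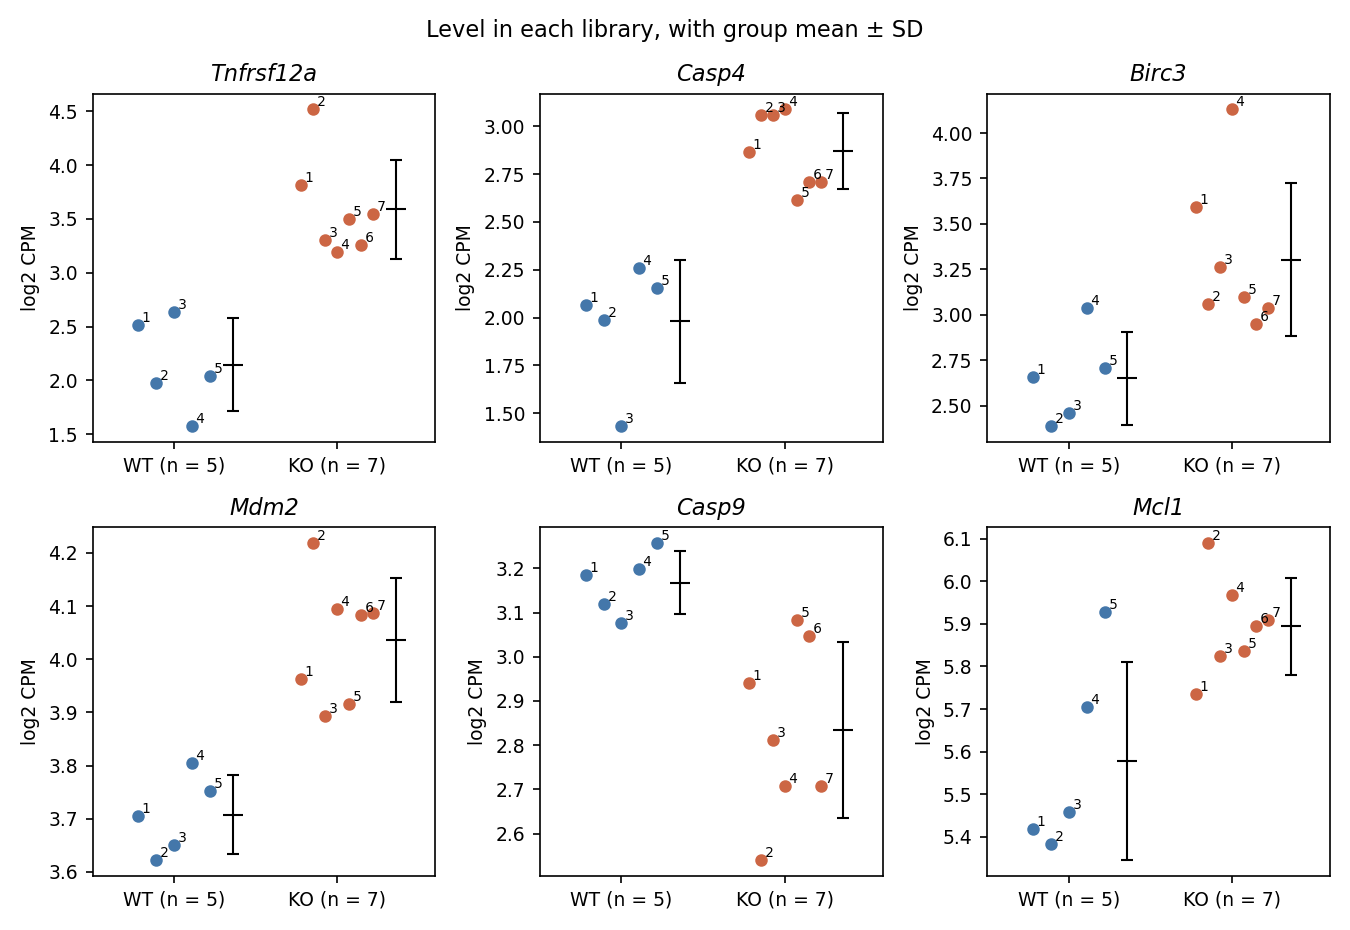
Level of each called member, and of Mcl1, the member nearest the threshold, in log2 CPM, with a numbered point for each of the 5 WT and 7 KO libraries and the group mean and SD beside them. KO points lie above all WT points for Tnfrsf12a, Casp4 and Mdm2, and overlap them for Birc3, Casp9 and Mcl1.

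The 6 adaptors and kinases that sit under the receptors did not pass the test, and their changes ran from -0.14 to 0.20 with a median of -0.01. Fadd, the adaptor that binds Casp8, had -0.14 ± 0.14 (SE). Tradd, the adaptor of Tnfrsf1a, had 0.04 ± 0.18, and Ripk1, the kinase of the same complex, 0.06 ± 0.08. Traf2, a ubiquitin ligase adaptor, had -0.08 ± 0.10, and Cflar, the catalytically inactive relative of Casp8, -0.06 ± 0.10. Ripk3, the kinase of necroptosis, had the widest spread of this group in KO glands. Its KO replicates 2, 6 and 7 stood at 1.88, 2.14 and 1.77 log2 CPM, and the other KO glands between 0.21 and 0.78. Its WT glands ran from 0.47 to 1.23, below the first set and overlapping the second, and its mean difference of 0.20 ± 0.33 had an adjusted p of 0.738.

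Among the caspases, 1 member rose and 1 fell. Casp4 (chr9:5308828-5336783, mm10), known in the mouse as caspase-11, senses lipopolysaccharide in the cytosol and triggers pyroptosis rather than apoptosis. It was 2.07, 1.99, 1.43, 2.26 and 2.15 log2 CPM in WT glands, and 2.61 to 3.09 with a median of 2.86 in KO glands. No KO gland overlapped a WT gland. The difference was 0.89 ± 0.14 (SE), 1.86-fold, with a limma adjusted p of 0.0031, and it was called without each single library and in day 10 glands alone (0.63, adjusted p 0.0305).

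Casp9 (chr4:141793612-141815976, mm10), the initiator that Apaf1 activates, was 3.19, 3.12, 3.08, 3.20 and 3.26 log2 CPM in WT glands and 2.54 to 3.08 with a median of 2.81 in KO glands. 6 of 7 KO glands lay below all WT glands, and none of the members had all KO glands below all WT glands, as 2.74% of all genes did. The difference was -0.33 ± 0.10 (SE), 1.26-fold lower, with a limma adjusted p of 0.0473. That call was lost without any 1 of WT replicates 1 to 5 or KO replicates 1, 2, 3, 4 and 7 (adjusted p 0.0625 to 0.106) and in day 10 glands alone (-0.35, adjusted p 0.165). Casp9 overlaps Cela2a and Ctrc, which lie on the opposite strand. Some other members, among them Ripk1, Bid, Diablo and Bad, also overlap genes on the opposite strand. The sources used here do not say whether counting used strand, so the values of Casp9 and of these members are uncertain.

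The remaining caspase members did not pass. Casp1, the inflammatory caspase that processes interleukin-1 beta, had 0.25 ± 0.18 (SE; adjusted p 0.408), and Casp8, the initiator at death receptors, 0.13 ± 0.10 (adjusted p 0.459). Casp2 had 0.15 ± 0.13 and Casp6, an executioner, -0.11 ± 0.13.

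The apoptosome genes did not pass. Cycs, cytochrome c, had 0.20 ± 0.09 (SE; adjusted p 0.145), and Apaf1, the scaffold that binds it, -0.01 ± 0.25. Diablo, a released antagonist of inhibitor of apoptosis proteins, had -0.24 ± 0.12 (adjusted p 0.200), and 5 of 7 KO glands lay below all WT glands. Of the 3 inhibitor genes, Birc3 passed. Birc3 (chr9:7848699-7873186, mm10) encodes cIAP2, a ubiquitin ligase of TNF receptor complexes. Its level was 2.66, 2.39, 2.46, 3.04 and 2.71 log2 CPM in WT glands and 2.95 to 4.13 with a median of 3.10 in KO glands. The groups overlapped, with 5 of 7 KO glands above all WT glands and KO replicate 4 the highest. The difference was 0.65 ± 0.19 (SE), 1.57-fold, with a limma adjusted p of 0.0447. It was not called without any 1 of WT replicates 1, 2, 3 and 5 or KO replicates 1, 2 and 3 (adjusted p 0.0557 to 0.109) or in day 10 glands alone (0.34, adjusted p 0.227). Xiap, which inhibits caspases directly, had 0.23 ± 0.08 (adjusted p 0.0959) with 6 of 7 KO glands above all WT glands, and Birc2, which encodes cIAP1, had 0.10 ± 0.12.

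None of the 12 Bcl2 family members passed the test. Mcl1, a short-lived survival protein that secretory cells need, came nearest. It was 5.42, 5.38, 5.46, 5.70 and 5.93 log2 CPM in WT glands, and 5.74 to 6.09 with a median of 5.90 in KO glands. WT replicate 5 lay inside the KO range. The Mcl1 difference was 0.32 ± 0.10 (SE) with a limma adjusted p of 0.0501. That p was 0.0161 without WT replicate 5 and up to 0.128 without another single library. Bcl2l1, the gene for the survival protein Bcl-xL, was 2.98, 3.02, 3.05, 2.71 and 3.30 log2 CPM in WT glands, and 3.05 to 4.03 with a median of 3.37 in KO glands. 6 of 7 KO glands were above all WT glands, and the difference of 0.44 ± 0.14 had an adjusted p of 0.0645. That p was 0.0295 without KO replicate 5 and up to 0.143 without another single library. Bcl2 itself had -0.01 ± 0.30.

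Of the pore formers, Bak1 had 0.32 ± 0.11 (SE, adjusted p 0.0677), Bax -0.10 ± 0.15 and Bok -0.05 ± 0.25. The Bak1 adjusted p was 0.0485 without WT replicate 1 and up to 0.148 without another single library. The 6 BH3-only and related genes, which set off or sense mitochondrial death, had a median of -0.06. Bmf, a BH3-only gene, was 4.13, 4.45, 4.11, 4.04 and 3.91 log2 CPM in WT and 2.84 to 4.68 with a median of 3.53 in KO glands. 6 of 7 KO glands lay below all WT glands and KO replicate 3, the day 8 gland, lay above all of them. The difference for Bmf was -0.57 ± 0.27 (adjusted p 0.192). Its adjusted p was 0.0236 without KO replicate 3 and up to 0.334 without another single library. Bnip3, a mitophagy receptor induced by low oxygen, was 4.66 to 5.38 log2 CPM in WT and 4.09 to 4.91 in KO glands, with -0.39 ± 0.16 (adjusted p 0.140). Bid, which links Casp8 to mitochondria, had 0.31 ± 0.16, and Bad, Bcl2l11 and Bnip3l had -0.02, -0.09 and 0.02.

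In the p53 group, Mdm2 passed the test. Mdm2 (chr10:117688875-117710758, mm10) encodes the ubiquitin ligase that degrades p53, and is itself a p53 target. It was 3.71, 3.62, 3.65, 3.80 and 3.75 log2 CPM in WT glands and 3.89 to 4.22 with a median of 4.08 in KO glands. No KO gland overlapped a WT gland. The difference was 0.33 ± 0.07 (SE), 1.26-fold, with a limma adjusted p of 0.0132, and it was called without each single library but not in day 10 glands alone (0.30, adjusted p 0.0998). Trp53, the gene for p53, had 0.20 ± 0.15 (adjusted p 0.415). Cdkn1a, the p53 target that arrests the cell cycle, had 0.39 ± 0.31 (adjusted p 0.460). Cdkn1a KO replicates 1, 2 and 4 stood between 3.11 and 3.25 log2 CPM and the other KO glands between 2.06 and 2.35, while WT glands ran from 1.19 to 2.99.

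**Figure D2:**
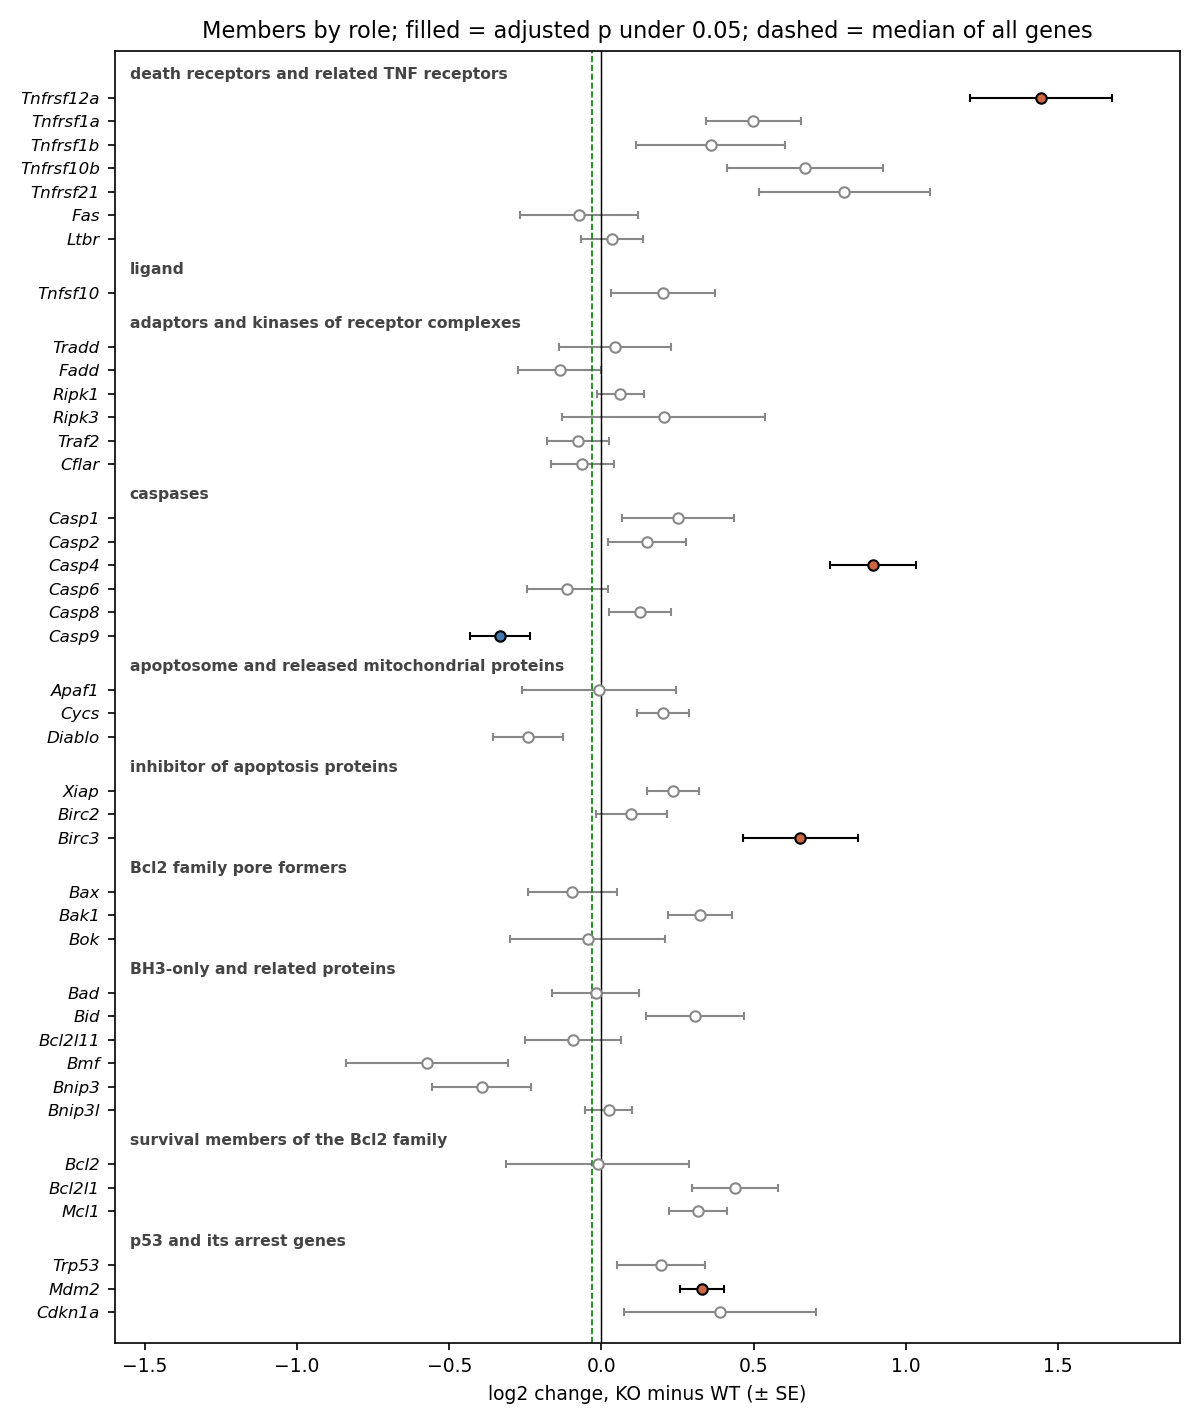
Log2 change (KO minus WT) of each of the 41 members with its SE, grouped by role, with filled points for called genes, open points for the rest and a dashed line at the median of all genes. Tnfrsf12a and Casp4 lie farthest to the right at 1.44 and 0.89, Casp9 is the called gene on the left, and Bmf lies farthest left at -0.57 with a wide SE.

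The KO glands differed among themselves in which members were high. KO replicate 4 had the highest KO level for 14 of 41 members (34.1%), against 19.1% of all genes. These included Casp1, Casp2, Casp4, Casp8, Apaf1, Cycs, Xiap, Birc2, Birc3, Trp53 and Cdkn1a. It had the lowest KO level for 8 members, among them Tnfrsf12a, Tnfrsf1a, Ltbr, Tradd, Ripk1 and Ripk3 (19.5%, against 23.4% of all genes). KO replicate 2 had the highest level for 10 members (24.4%, against 13.4%), among them Tnfrsf12a, Tnfrsf1a, Tnfrsf10b, Tnfrsf21 and Ltbr, and also Bax, Bak1, Bcl2l1, Mcl1 and Mdm2. KO replicate 6 had the lowest KO level for 10 members (24.4%, against 13.1% of all genes), among them Tnfsf10, Casp8, Apaf1, Xiap, Birc3, Bmf and Trp53. Of the 7 receptor genes KO replicate 2 was thus highest for 5, against 13.4% of all genes. KO replicate 4 was highest for 4 of the 6 caspase genes, against 19.1% of all genes. Each of these counts rests on 1 library, and nothing about the receptors or caspases is read from them. KO replicates 4 and 2 also lay farthest from WT on the first principal component of all genes. The median absolute deviation of the members from the WT mean was 0.09 to 0.15 in WT and 0.20 to 0.46 in KO libraries, with KO replicates 4 and 2 at 0.46 and 0.41. That mean comes from the same WT glands, and the KO values include the difference between the groups. The deviations therefore do not measure spread among KO glands. The SD was larger in KO than in WT glands for 27 of 41 members (65.9%) and for 63.1% of all genes.

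**Figure D3:**
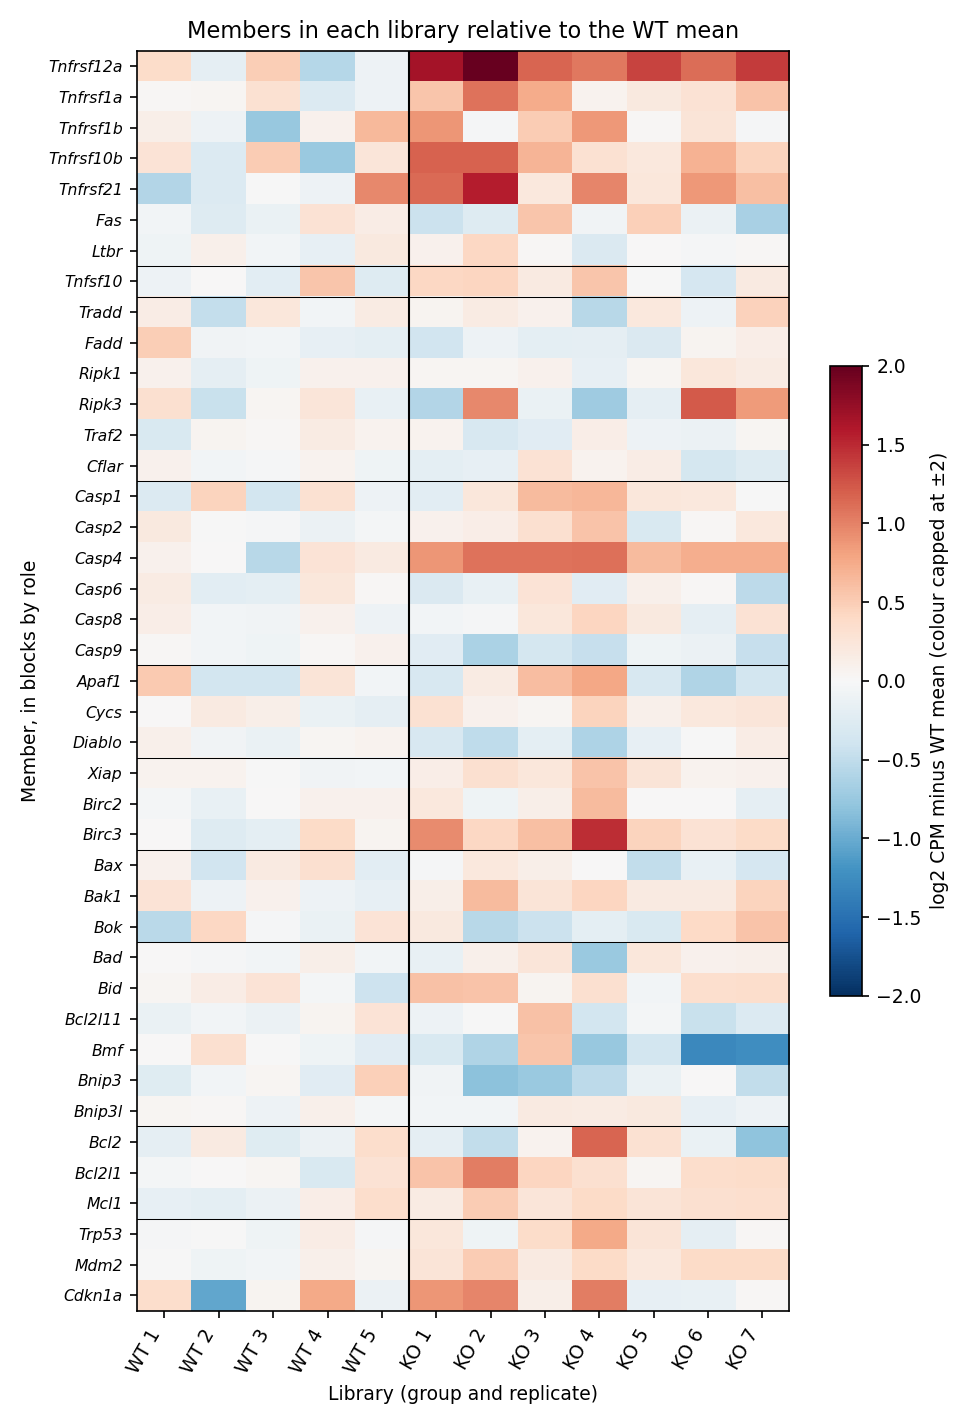
Deviation of each member from its WT mean in log2 CPM, with members in rows by role and libraries in columns, on a colour scale that ends at 2 in each direction. WT columns are pale and KO replicates 2 and 4 carry the strongest colours, and Tnfrsf12a in KO replicate 2 lies beyond the end of the scale.

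Markers of other cell types in the gland moved between the groups too. The macrophage list had 12 of 12 genes analysed and 4 higher in KO glands, and its summed level was 101 to 130 CPM in WT and 112 to 218 CPM in KO glands. The mean log2 level of its markers was higher by 0.41, with 5 of 7 KO glands above all WT glands (exact permutation p 0.0101). The basal and myoepithelial list had 11 of 11 genes analysed and 7 higher, with 465 to 610 CPM in WT and 510 to 780 CPM in KO glands, a score higher by 0.38, and 6 of 7 KO glands above all WT glands (exact permutation p 0.00884). The skeletal muscle list had 16 of 16 genes analysed and 0 called, with 80.2 to 553 CPM in WT and 120 to 1920 CPM in KO glands. Its score was higher by 1.13 (exact permutation p 0.121), and KO replicate 4 had the highest score at 2.80. The luminal and secretory list had 9 of 9 analysed and 2 higher, Krt8 and Epcam. Its changes ran from -0.25 to 0.49, 5 of 9 of them positive, and Csn2 and Wap hold 1 fixed value. Its score was higher by 0.13, with 7 of 7 KO glands above all WT glands (exact permutation p 0.00126). None of the 8 neutrophil and 9 T and NK cell markers was analysed here, and none of the 8 fibroblast markers or the 3 of 7 B and plasma cell markers analysed was called. Of 8 adipocyte markers 1 was higher (score higher by 0.17, 361 to 580 CPM in WT and 356 to 638 CPM in KO glands). Of 8 endothelial markers 1 was lower (score -0.20, exact permutation p 0.198, 56.1 to 92.9 CPM in WT and 46.4 to 78.4 CPM in KO glands). No marker that was analysed is listed at 0.

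With the macrophage score as a covariate, a fit chosen after seeing the data, the limma difference was 1.52 for Tnfrsf12a (adjusted p 0.227), 0.50 for Casp4 (0.382), 0.12 for Birc3 (0.891) and 0.32 for Mdm2 (0.398). With the basal and myoepithelial score it was 1.03 for Tnfrsf12a (adjusted p 0.196), 1.09 for Casp4 (0.0735), 0.75 for Birc3 (0.263) and 0.26 for Mdm2 (0.277). With the muscle score, Tnfrsf12a (1.53, adjusted p 0.0157) and Casp4 (0.87, 0.0157) were called, and Birc3 (0.44, 0.209), Mdm2 (0.33, 0.0570) and Casp9 (-0.30, 0.178) were not. The part of these cell types in the results beyond these fits was not tested, and in bulk tissue fewer cells of a type and less RNA per cell cannot be told apart.

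**Figure D4:**
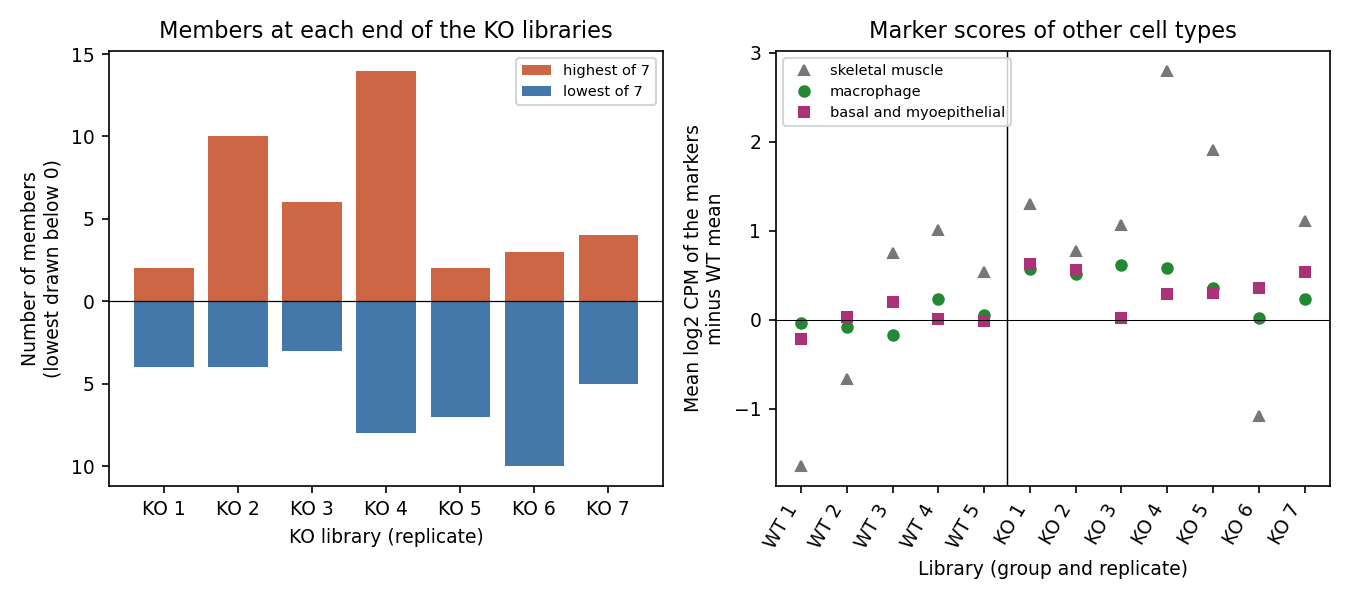
Left, number of members for which each KO library is the highest (up) or the lowest (down) of the 7 KO libraries. Right, mean log2 CPM of the skeletal muscle, macrophage and basal and myoepithelial markers in each library relative to the WT mean, where KO replicate 4 has the highest muscle score and KO replicate 6 the lowest of the KO glands.

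The wider pathway was described with 201 genes outside the members in 7 lists, of which 157 were analysed. Of these 15 were called (9.55%, close to the 9.36% of all genes), 12 higher and 3 lower in KO glands, and the median change of the 157 was -0.01. The counts of single lists stand against 4.84% of all genes higher and 4.52% lower. Among TNF ligands and other receptors, 8 of 29 genes were analysed, 1 rose and 1 fell. Tnfrsf23, a decoy receptor for TRAIL, was -1.08 to 0.03 log2 CPM in WT and 0.44 to 2.94 in KO glands (1.61 ± 0.37 SE, limma adjusted p 0.0173). Tnfrsf22, a close relative that can share reads with it, had 0.41 ± 0.30. Eda, the ectodysplasin ligand of skin and gland buds, was 1.76 to 2.27 log2 CPM in WT and 1.04 to 1.62 in KO glands (-0.67 ± 0.14, adjusted p 0.0097).

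In the signalling adaptors and NF-kB regulators, 2 of 33 genes rose and 0 fell. Tank, which binds TRAF proteins and kinases, rose by 0.55 (adjusted p 0.0162), and Rela, the p65 subunit of NF-kB, rose by 0.38 (adjusted p 0.0466). Traf1, itself an NF-kB target, had -0.98 ± 0.30 (SE; adjusted p 0.0613), and Chuk, the kinase IKK alpha, -0.28 ± 0.09 (adjusted p 0.0635). The 24 genes analysed of the other caspases and execution machinery had 1 called higher, Pea15a, a death effector domain protein that binds Fadd (0.58, adjusted p 0.0109), and 0 lower. Birc5, survivin, had 1.57 ± 0.53 (adjusted p 0.0796), Dapk1, a death-associated kinase, -0.52 ± 0.16 (adjusted p 0.0613) and Lmnb1, a nuclear lamina protein cut by caspases, 0.78 ± 0.27 (adjusted p 0.0866).

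Of 30 p53 target genes analysed 4 rose (13.3%, against 4.84% of all genes) and 0 fell. The median change of the 30 was 0.03, and 16 of them were positive (53.3%, against 44.6% of all genes), so the list as a whole did not lie to one side. Sfn, the epithelial 14-3-3 sigma, was 1.40 to 1.84 log2 CPM in WT and 2.09 to 2.91 in KO glands (0.95 ± 0.15 SE, limma adjusted p 0.0031). Plk3, a stress kinase, rose by 0.69 (adjusted p 0.0442), and Trp53i11 by 0.75 (adjusted p 0.0425). Ckap2, a spindle protein, rose by 2.71 (adjusted p 0.0339) from low levels of -4.86 to -1.34 log2 CPM in WT glands, and was not called on log2(CPM + 1) values. Of 12 necroptosis and pyroptosis genes analysed, 2 rose and 1 fell (25% called, against 9.36% of all genes). Mlkl, the membrane effector downstream of Ripk3, was 0.84 to 1.84 log2 CPM in WT and 1.75 to 3.13 in KO glands (0.90 ± 0.23, adjusted p 0.0253). Panx1, a channel cleaved by caspases, rose by 0.90 (adjusted p 0.0162), and Pycard, the inflammasome adaptor ASC, fell by 0.51 (adjusted p 0.0314).

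In the other Bcl2 family genes 1 of 22 rose, Rassf1 (0.66, limma adjusted p 0.0263), a scaffold of Hippo signalling, and 0 fell. Bcl2l14 had -0.66 (adjusted p 0.0509), Tmbim6, which encodes Bax inhibitor 1, -0.31 (adjusted p 0.0536), and Vdac3, a mitochondrial porin, 0.27 (adjusted p 0.0702). In the 29 mitophagy and autophagy genes Optn, a mitophagy receptor, rose (0.39, adjusted p 0.0309) and Nbr1, an autophagy receptor, fell (-0.36, adjusted p 0.0183). Map1lc3a had 0.35 (adjusted p 0.0709) and Ulk2, an initiating kinase, -0.48 (adjusted p 0.0548). Of the 15 called pathway genes, 6 were called without each single library, Eda, Tnfrsf23, Tank, Pea15a, Sfn and Panx1. Among these 6, Tnfrsf23, Tank, Pea15a and Panx1 were not called in day 10 glands alone. Tnfrsf23 was also not called on log2(CPM + 1) values, and its adjusted p reached 0.0494 with 1 library left out. The other 9 lost their call without at least 1 library. Nbr1 lost it without WT replicate 1 (adjusted p 0.0542). Rassf1 lost it without WT replicates 1, 2 or 3 or KO replicate 1 (up to 0.0744), and Mlkl without WT replicates 1, 3 or 5 or KO replicate 1 (up to 0.0658). Optn lost it without WT replicates 2, 3 or 5 or KO replicates 1, 2 or 7 (up to 0.0805), and Pycard without WT replicates 2 to 5 or KO replicates 1 or 4 (up to 0.0759). Ckap2 lost it without WT replicates 1, 3 or 5 or KO replicates 1, 2, 4 or 7 (up to 0.0904). Trp53i11 lost it without WT replicates 1, 3, 4 or 5 or KO replicates 1, 2, 3 or 5 (up to 0.112). Plk3 lost it without WT replicates 1, 2 or 5 or KO replicates 1 to 6 (up to 0.113), and Rela without WT replicates 1 to 4 or KO replicates 1, 2, 3, 6 or 7 (up to 0.123).

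**Figure D5:**
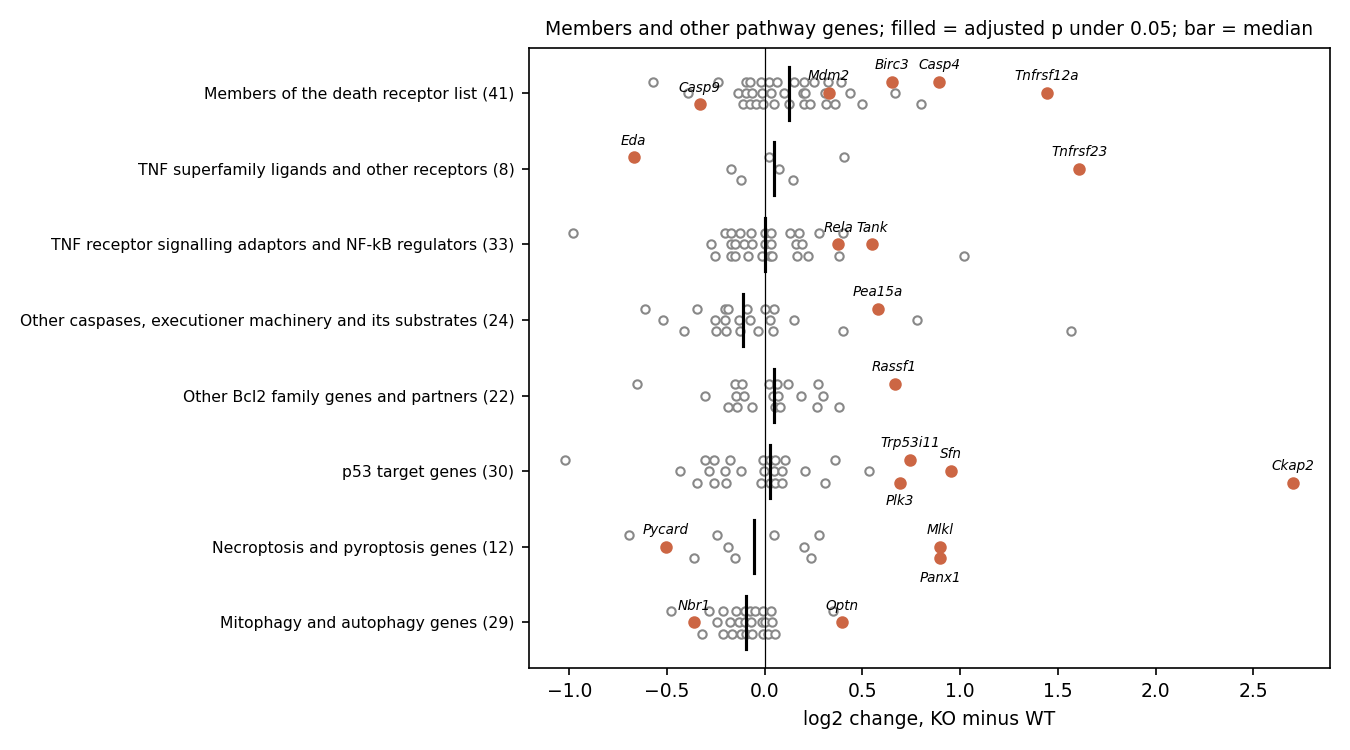
Log2 change (KO minus WT) of the 41 members and of the genes in the 7 other lists, with the number analysed in parentheses, a point per gene, named filled points for called genes and a bar at each list's median. Genes scatter on both sides of 0 in every list, and the 4 called p53 target genes all lie to the right.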

How the data were processed

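PolyA RNA from 5 WT and 7 KO lactating mammary glands was sequenced as 12 paired-end TruSeq libraries. The submitters' processing notes name STAR 2.5.2b, RSEM 1.3.0, limma 3.34.5, Trimmomatic 0.33 and bcl2fastq 2.17, and the builds mm10 and hg19, with no role for each. The deposited table, made by the authors, gives log2 CPM per gene and library, and the sorted values of its columns nearly match, as after quantile normalization. The authors' log2 fold changes, p-values and moderated statistics (a score) are deposited beside it, and were used as an alternative. Read counts were not used here, and depth was estimated from the step between low values.

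From the log2 values limma 3.58.1 (R 4.3.3) fitted genotype over all 12 libraries and 11834 genes, with a mean trend and robust variances. P-values were adjusted by Benjamini-Hochberg over all 11834 genes, and a call is an adjusted p under 0.05. Differences are log2, KO minus WT. The fitting was tested on simulated data with 100 genes changed by 1 and 100 changed by 0.5 on the log2 scale. It called 80 and 53 of them, and 5 of 11634 unchanged genes, so a gene that was not called may still differ. Exact permutation tests are two-sided. The members and lists were chosen with earlier results of these data known. Named genes are the members plus the 4 genes of each pathway list with the smallest p. Alternatives changed the block, day, weights, scaling, filter, pseudocount, threshold, marker covariates or libraries. RefSeq tables gave the sequences. Some pathway genes are not reported here and are in none of the list counts.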

Additional observations from a re-analysis of the deposited data

Results flagged for a closer look

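In 140 tests of members and pathway genes within a group, 6 values stood apart from their group by Dixon's ratio at the 95% level, and chance flags about 1 in 20 groups. Fadd was highest in WT replicate 1 at 2.59 log2 CPM, with the next WT gland at 2.03. Bad was lowest in KO replicate 4 at 2.03 log2 CPM, with the next KO gland at 2.62. Bcl2l11 was highest in KO replicate 3 at 2.79 log2 CPM, with the next KO gland at 2.19. Tnfrsf23 was highest in KO replicate 2 at 2.94 log2 CPM, with the next KO gland at 1.14. Pycard was lowest in WT replicate 1 at 3.93 log2 CPM, with the next WT gland at 4.21. Btn1a1 was highest in WT replicate 3 at 11.23 log2 CPM, while the other 4 WT glands shared 11.03.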

How the results depend on the processing

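The 25 alternative fits of each of the 5 called members gave 125 values, of which 87 kept their call, 38 lost it and 0 changed sign. Called members higher in KO numbered 4, and 2 in day 10 glands alone, with the muscle score or at an adjusted p under 0.01, 0 with the macrophage or basal score, and 3 to 6 with 1 library left out. Called members lower in KO numbered 1, and 0 in day 10 glands alone, without trend and robust variances, with cyclic loess, with the muscle, macrophage or basal score and at 0.01, and 0 to 1 with 1 library left out. Of pathway genes 15 were called, 4 in day 10 glands alone, 2 with the muscle score and at 0.01, 0 with the macrophage or basal score, and 7 to 21 with 1 library left out. All genes called were 1108, and 268, 276, 249, 1 and 10 for day 10, muscle, 0.01, macrophage and basal, and 559 to 1327 with 1 library left out. The day 10 fit had fewer libraries, and each score fit spent a degree of freedom, while the stricter threshold did neither. The lactation day covariate also spent a degree of freedom and gave 1271 calls among all genes. The macrophage and basal scores themselves differed between the groups (exact permutation p 0.0101 and 0.00884). In those fits genotype and score therefore cannot be fully told apart. The cause of the changed counts was not tested.

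Of the 41 members, 20 kept their sign in every setting and 21 turned in at least 1. These 21 had changes of -0.14 to 0.39 and were called in 0 settings. They include 14 given here by name only, Tnfrsf1b, Fas, Ltbr, Tradd, Ripk3, Cflar, Casp6, Apaf1, Bok, Bad, Bid, Bcl2l11, Bnip3l and Bcl2. For the other 7 members and the pathway genes Tnfsf13, Dapk1 and Dfna5, signs turned with the macrophage score for Tnfsf10 (-0.32), Fadd (0.11), Casp1 (-0.0035), Casp8 (-0.022), Birc2 (-0.14), Trp53 (-0.16), Cdkn1a (-0.39) and Tnfsf13 (0.057), with the muscle score for Fadd (0.011) and Birc2 (-0.018), in day 10 glands for Birc2 (-0.060) and Cdkn1a (-0.012), and with the basal score for Dapk1 (0.038) and Dfna5 (0.060).

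Replicate numbers are shared between the groups, but same-numbered libraries showed no strong common deviation (r -0.17 to 0.21). No pairing was taken from the numbers, though so few libraries cannot exclude one. With the replicate number as a block, 4 members were called higher, 0 lower, 13 pathway genes and 1083 genes in all. The 4 were Tnfrsf12a, Casp4, Birc3 and Tnfrsf1a, which was gained (adjusted p 0.0240), while Mdm2 (0.0650) and Casp9 (0.0688) were not called. KO replicates 6 and 7 have no WT partner, so the genotype difference in that fit rests on the other 5 numbers.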
